A study of Mus musculus with 30 samples.

Results

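The genes described here are 10 mineralization genes, Alpl, Runx2, Sp7, Spp1, Ibsp, Enpp1, Slc20a1, Slc20a2, Mgp and Dlx5. They were taken by symbol from the 38561 genes of the count table, and each symbol matched 1 Ensembl gene. The libraries came from RNA of adipose-derived stem cells, grown from the inguinal fat of male C57BL6/J mice. Cells were sorted as Sca-1+ CD34+ CD31- CD45- Ter119- and expanded to passage 2, with no label naming an osteogenic medium. Young mice were killed at 20 weeks and aged mice at 52 weeks. Control chow was fed to the lean groups, while the obese groups had a high-fat diet (60% of energy as fat, from lard) from weaning onward. There were 8 lean and 8 obese young mice, 8 lean and 6 obese aged mice, and 1 library a mouse, named here by its mouse number. In obese mice, age and time on the diet cannot be told apart.

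Bone and calcifying cartilage mineralize when phosphate outside the cell outweighs pyrophosphate, which blocks crystal growth. Enpp1 makes pyrophosphate from nucleotides, Alpl (tissue-nonspecific alkaline phosphatase) splits it into phosphate, and Slc20a1 and Slc20a2 carry phosphate into cells. Runx2 is the transcription factor that starts the osteoblast program, Sp7 (osterix) acts after it, and Dlx5 is a homeodomain factor upstream of both. Ibsp and Spp1 are acidic phosphoproteins of bone matrix, the latter an inhibitor of crystal growth, and Mgp is a vitamin K-dependent inhibitor of calcification in vessel wall and cartilage. Stromal cells of fat can turn into bone-forming cells in culture, and alkaline phosphatase activity is a common early readout of that step.

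Counts in genes ranged from 30597765 to 47970233 a library. Levels are in CPM, the counts of a gene relative to the scaled total of its library. Of the 38561 genes, 14438 passed the filter on low counts and 9 of the 10 members were among them. Ibsp was not. Young obese libraries fell into sets. The chi-square statistic per gene, which is near 1 where 2 libraries differ by counting error alone, was 8.39 between young obese 1 and 2 and 6.52 to 22.98 among young obese 18, 19, 20, 21 and 23. It was 130 to 380 between other young obese pairs and 18.5 to 502 for pairs within the other groups. Young obese 1 and 2 also carried the sort marker Cd34 at 26.1 and 27.9 CPM, and the other 6 libraries of that group at 0.912 to 2.79 CPM. Aged obese 10 and 12 were low in Ly6a, the gene of Sca-1, with 176 and 362 CPM against 917 to 1019 CPM in the other 4. The tests treat libraries as independent, which close libraries may not be. No source used here says whether mice shared a sort or culture day. The p-values rest on the spread between these libraries, each counted as 1 independent mouse.

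Osteoblast identity was checked with 8 markers. Ibsp, Sost and Mepe had a median of 0 CPM in every group, and Dmp1 had one in all groups but aged obese. Bglap (osteocalcin) reached at most 0.0990 CPM and Bglap2 at most 0.363 CPM in any library, and Phex at most 0.227 CPM. Of the 8 markers Sp7 alone passed the filter, so the summed level of the list, 2.98 to 21.98 CPM over all groups, was almost wholly Sp7. The cells thus carried transcripts of the mineralizing enzymes and transporters without the defining genes of mature bone cells.

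The starts of Alpl, Enpp1 and Slc20a1 are shown because Alpl and Slc20a1 were called and Enpp1 works against Alpl. Windows of Sp7 and Mgp, also called, are not shown. RefSeq promoter windows (build GRCm38.p6) were found for 6 of the 10 members, namely Alpl, Runx2, Spp1, Ibsp, Enpp1 and Slc20a1. Each window below runs 5′ to 3′ from 250 to 11 bases before a start. Capitals mark the GC box GGGCGG (reverse CCGCCC) and the Runx core motif TGTGGT (reverse ACCACA), searched on both strands. The Alpl windows lie at chr4:137796395-137796634 and chr4:137766486-137766725, both on the minus strand. That of Enpp1 lies at chr10:24712170-24712409 on the minus strand and that of Slc20a1 at chr2:129198523-129198762 on the plus strand.
Alpl, start 1: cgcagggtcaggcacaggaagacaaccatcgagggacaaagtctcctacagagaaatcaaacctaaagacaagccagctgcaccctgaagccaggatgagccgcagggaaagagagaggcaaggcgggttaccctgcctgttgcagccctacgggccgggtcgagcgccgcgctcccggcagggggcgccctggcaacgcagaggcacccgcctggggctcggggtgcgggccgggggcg
Alpl, start 2: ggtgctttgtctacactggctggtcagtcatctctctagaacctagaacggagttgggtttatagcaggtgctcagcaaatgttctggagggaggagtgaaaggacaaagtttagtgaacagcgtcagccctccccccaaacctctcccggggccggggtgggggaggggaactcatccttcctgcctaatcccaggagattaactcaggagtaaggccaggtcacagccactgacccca
Enpp1: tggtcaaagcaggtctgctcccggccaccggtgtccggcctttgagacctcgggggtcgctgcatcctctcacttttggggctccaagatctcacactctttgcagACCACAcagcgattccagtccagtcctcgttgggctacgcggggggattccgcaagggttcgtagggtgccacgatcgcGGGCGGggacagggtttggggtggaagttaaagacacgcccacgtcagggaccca
Slc20a1, start 1: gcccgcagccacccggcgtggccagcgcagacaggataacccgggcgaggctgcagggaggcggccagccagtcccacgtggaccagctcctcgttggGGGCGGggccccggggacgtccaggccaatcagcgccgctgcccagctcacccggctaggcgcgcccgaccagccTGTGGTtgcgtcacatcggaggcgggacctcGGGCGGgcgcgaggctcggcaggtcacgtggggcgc
Neither Alpl window held either motif. The Enpp1 window held 1 match of each, and the window at the first Slc20a1 start held 2 GC boxes and 1 Runx core motif. A second Slc20a1 start, not printed, had 1 GC box and 0 Runx core motifs in its window (chr2:129206846-129207085). Over all 32851 RefSeq windows of this length, 31.3% held a GC box and 13.6% a Runx core motif. The Alpl windows differed in base composition, with 67.1% G and C at the first start and 55.4% at the second. A match is a description of letters, and reads were counted per gene, so the table does not tell the starts of Alpl apart.

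Alpl (ENSMUSG00000028766) was the member with the largest difference in young mice. In young lean libraries it ran from 19.7 to 52.4 CPM with a median of 28.9 CPM. Young obese libraries gave 57.8 CPM (mouse 1), 60.8 (2), 159 (18), 146 (19), 212 (20), 153 (21), 31.8 (22) and 56.2 CPM (23). Mice 18 to 21 stood above all others, mouse 22 lay within the young lean range, and all 8 young obese libraries were above the young lean median, while the groups overlapped. The means were 31.7 ± 10.6 (SD, n = 8) and 110 ± 65.5 CPM (SD, n = 8), a log2 difference of 1.79 ± 0.41 (SE), or 3.45-fold, with an adjusted p of 0.0151 in edgeR's quasi-likelihood test. Of all genes tested, 8.83% were called in this comparison, 3.46% higher and 5.37% lower.

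The call for Alpl held in each fit that left out 1 young library, with log2 differences from 1.59 to 1.93. It also held without young obese 1 and 2 (1.99 ± 0.42, adjusted p = 0.0337). After seeing the data, young obese 1 and 2 were summed to 1 library and 18, 19, 20, 21 and 23 to another. The difference was then 1.32 ± 0.49 with an adjusted p of 0.234 in edgeR, so the call rested on counting these libraries singly.

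In aged mice Alpl was not called. Aged lean libraries ran from 7.13 to 71.8 CPM with a median of 25.3 CPM, and aged obese libraries from 20.9 to 94.2 CPM with a median of 45.3 CPM. The groups overlapped over most of their ranges, and 5 of 6 aged obese libraries were above the aged lean median. The log2 difference was 0.87 ± 0.42 (adjusted p = 0.394, edgeR). Of all genes, 0.222% were called for obesity in aged mice. Between young and aged lean mice Alpl differed by -0.15 ± 0.40, and between young and aged obese mice by -1.07 ± 0.44 (adjusted p = 0.171, edgeR), which voom gave as -1.69 with an adjusted p of 0.0201. For age in obese mice voom called 2870 of 14438 genes, and edgeR 443. All 6 aged obese libraries lay below the young obese median of 103 CPM. The obesity effect on Alpl was smaller in aged than in young mice by 0.92 ± 0.59 on the log2 scale, which did not pass the test (adjusted p = 0.670, edgeR). The young obese libraries enter both comparisons in which they stand out, so obesity in young mice and age in obese mice are not independent.

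**Figure D1:**
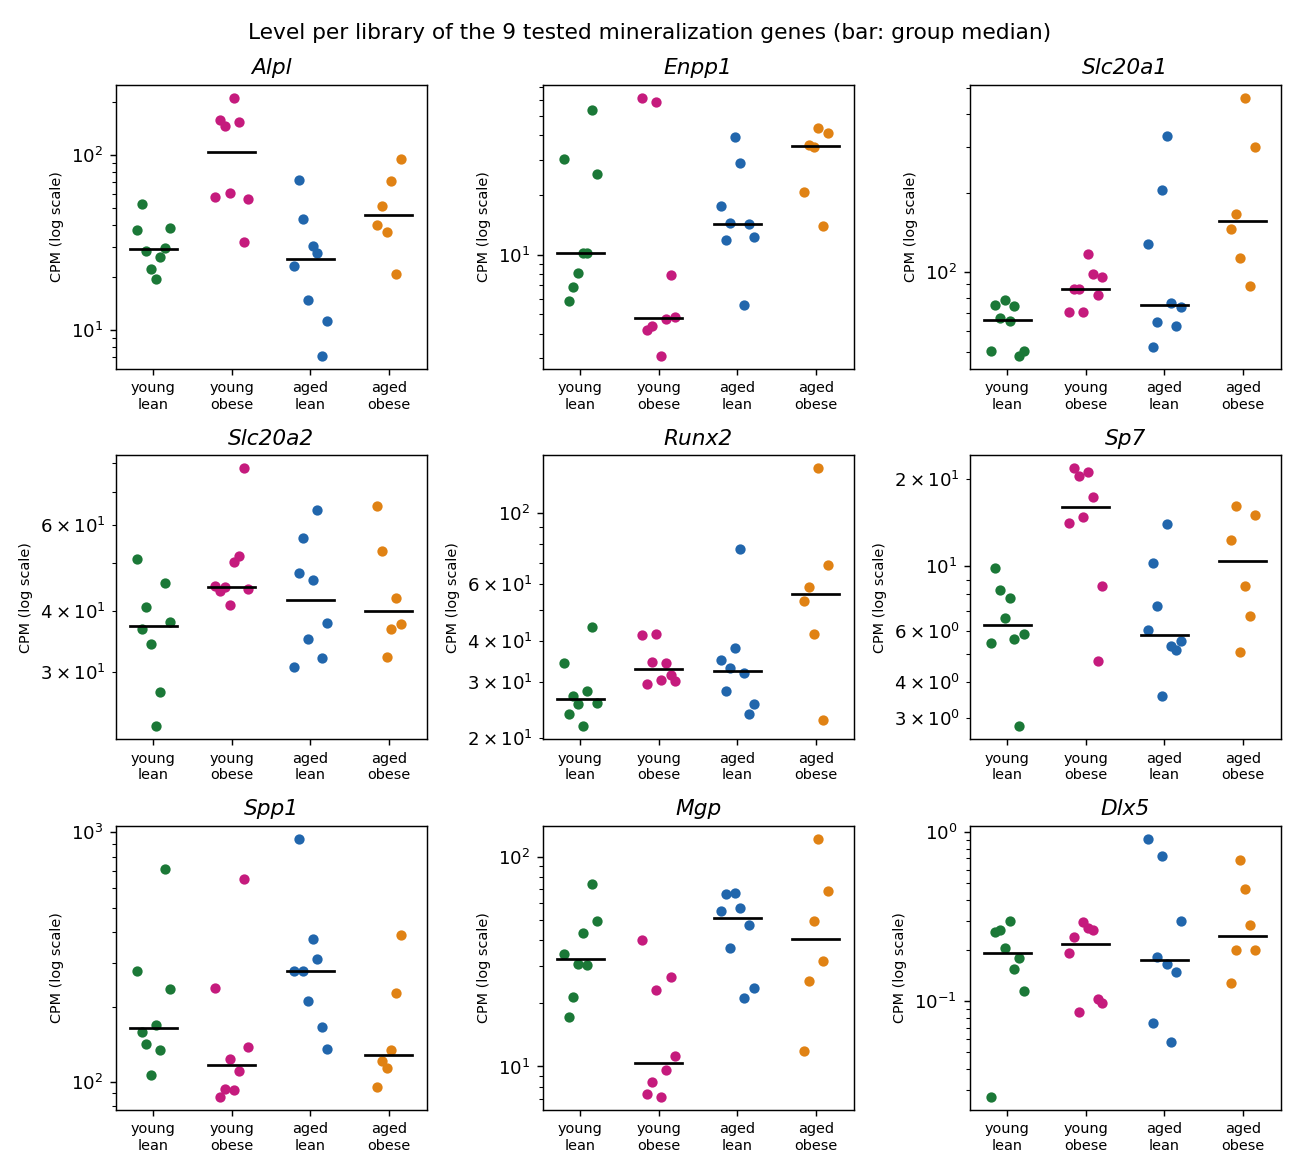
CPM on a log axis for the 9 tested members in each library, by group, with a bar at each group median. Alpl and Sp7 are highest in part of the young obese libraries, Enpp1 in young obese 1 and 2 stands far above the other 6, and Slc20a1 and Runx2 have single high libraries among the aged mice.

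Enpp1 (ENSMUSG00000037370), which makes the pyrophosphate that Alpl removes, split the young obese group. Its level was 61.7 CPM in mouse 1 and 59.1 CPM in mouse 2, and 3.09 to 7.90 CPM in the other 6. The first pair exceeded every young lean library, which ran from 5.84 to 53.3 CPM with a median of 10.2 CPM, and the other 6 lay below that median. The group means were almost equal, 18.8 ± 16.7 and 18.7 ± 25.8 CPM (SD, n = 8 each), and the log2 difference was -0.01 ± 0.60 (adjusted p = 0.993, edgeR). Without young obese 1 and 2 it was -1.95 ± 0.47 with an adjusted p of 0.0485, so these libraries decided the value. With all libraries, voom with quality weights gave -1.11 ± 0.34 (adjusted p = 0.0143). The same libraries decided the age comparison in obese mice. There the difference was 0.76 ± 0.64 with all libraries (adjusted p = 0.556) and 2.70 ± 0.50 without the pair (adjusted p = 0.00664, edgeR), while voom gave 2.62 ± 0.40 with all libraries (adjusted p = 0.000709). All of these fits count the close young obese libraries 18, 19, 20, 21 and 23 singly. With the close libraries summed, Enpp1 was called in neither comparison. Aged lean libraries ran from 5.60 to 39.2 CPM and aged obese from 13.9 to 43.3 CPM, and the difference between them, 0.81 ± 0.64, passed no test.

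Set against each other within a library, the pair of enzymes ranged widely. The ratio of Alpl to Enpp1, each per exon length, had a median of 5.73 in young lean, 2.998 in aged lean and 3.99 in aged obese libraries. In young obese libraries it was 96.7 (18), 85.0 (19), 174 (20), 82.4 (21), 29.4 (23) and 10.3 (22), against 2.38 and 2.62 in mice 1 and 2. Mice 18 to 21 and 23 were above the highest young lean library, which had 22.9. Aged obese libraries kept the narrowest range, 2.64 to 5.81. These ratios do not depend on the scaling between libraries, and no test was made on them.

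**Figure D2:**
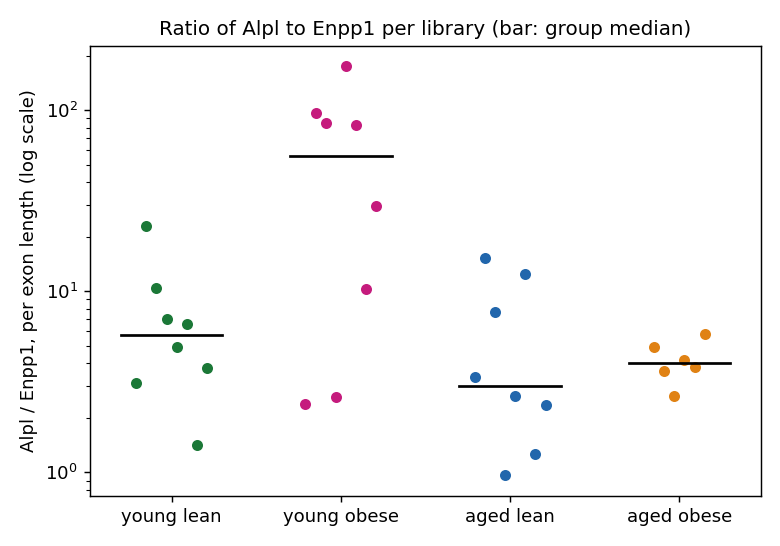
Ratio of Alpl to Enpp1 per exon length in each library (log axis) for the 4 groups, with a bar at the group median. Young obese libraries span 2.38 to 174, and aged obese libraries 2.64 to 5.81.

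Slc20a1 (ENSMUSG00000027397), the type III sodium-phosphate cotransporter PiT-1, was higher in aged than in young obese mice. Young obese libraries ran from 70.7 to 118 CPM with a median of 86.6 CPM. Aged obese libraries gave 146 (10), 167 (12), 114 (14), 459 (15), 88.5 (16) and 299 CPM (17). All 6 were above the young obese median, but mice 14 and 16 lay within the young obese range and mouse 15 was far above the rest. The log2 difference was 1.26 ± 0.35, or 2.39-fold, with an adjusted p of 0.0444 (edgeR). In this comparison 3.07% of all genes were called, 1.87% higher and 1.2% lower in aged mice. The call was marginal. Without aged obese 15 the difference was 0.88 ± 0.33 (adjusted p = 0.226), without aged obese 17 it was 1.14 ± 0.36 (adjusted p = 0.101), and it missed the threshold without any 1 of the young obese libraries (adjusted p 0.0564 to 0.0732, edgeR). It was 0.75 ± 0.29 with voom (adjusted p = 0.0630) and 1.36 ± 0.53 with the close libraries summed (adjusted p = 0.541). It also missed the threshold without the filter (adjusted p = 0.0576) and with only the groups compared (0.0542).

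Aged lean mice held a high library of their own for Slc20a1. Mouse 16 had 330 CPM, mouse 15 had 205 and mouse 11 had 129 CPM, and the other 5 lay between 52.2 and 76.4 CPM. Young lean libraries were tight, 48.2 to 78.8 CPM. The difference between aged and young lean mice was 0.96 ± 0.33, with an adjusted p of 0.850 in edgeR. No gene was called for age in lean mice (0%), where 773 of 14438 had an unadjusted p under 0.05, and DESeq2 and voom called no member either. Obesity differed by 0.47 ± 0.33 in young and 0.77 ± 0.35 in aged mice, neither called. Without aged lean 16 the aged difference was 1.16 ± 0.31 (adjusted p = 0.0366, edgeR).

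Slc20a2 (ENSMUSG00000037656, PiT-2), the other carrier of its family, was the steadiest member. Its median was 37.3 CPM in young lean and 44.8 CPM in young obese libraries, and 42.1 CPM in aged lean and 40.1 CPM in aged obese ones. Young obese 22 had 78.1 CPM and the rest of that group 41.1 to 51.8 CPM. The difference for obesity in young mice was 0.43 ± 0.18 (adjusted p = 0.111), with all 8 young obese libraries above the young lean median, and the other 3 pairwise differences lay between -0.16 and 0.24. Smim19 on the opposite strand shares exon sequence with Slc20a2, and the genes Gm4430 and 9830144P21Rik do so with Slc20a1. Whether strand was used in counting is not given in the sources used here, and reads of such neighbours may be mixed in.

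Among the transcription factors, Sp7 (ENSMUSG00000060284) was called with Alpl. Young lean libraries ran from 2.80 to 9.85 CPM with a median of 6.25 CPM. Young obese libraries gave 14.1 (1), 14.8 (2), 21.8 (18), 20.5 (19), 21.2 (20), 17.4 (21), 4.70 (22) and 8.53 CPM (23). Mice 22 and 23, the lowest for Alpl in that group, were again the lowest and lay within the young lean range. The difference was 1.23 ± 0.30, or 2.35-fold, with an adjusted p of 0.0201 in edgeR. It kept its size without young obese 1 and 2 (1.26 ± 0.33) but just missed the threshold (adjusted p = 0.0547). With the close libraries summed it was 0.93 ± 0.39 (adjusted p = 0.260). In aged mice Sp7 ran from 3.58 to 14.03 CPM in lean and 5.08 to 16.2 CPM in obese libraries, a difference of 0.58 ± 0.32 that was not called (adjusted p = 0.473, edgeR).

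Runx2 (ENSMUSG00000039153) did not share this pattern. Young lean and young obese libraries had 21.8 to 44.2 and 29.4 to 42.1 CPM, and the log2 difference was 0.25 ± 0.25 (adjusted p = 0.538, edgeR). The aged obese group was the highest and the widest, with 53.2 (10), 59.0 (12), 42.0 (14), 137 (15), 22.7 (16) and 68.7 CPM (17). Mice 10, 12, 15 and 17 were above every young obese library, and mouse 16 was below every one. Aged and young obese mice differed by 0.90 ± 0.27, with an adjusted p of 0.0567 in edgeR and 0.0244 in DESeq2. Obese and lean aged mice differed by 0.80 ± 0.27 (adjusted p = 0.186, edgeR). Aged lean 16, which had 77.4 CPM against 38.2 CPM or less in the others, moved this value. Without it the difference was 1.05 ± 0.24 with an adjusted p of 0.0195, and without aged obese 15 it was 0.43 ± 0.24 (adjusted p = 0.578). Runx2os1, an antisense gene, shares exon sequence with Runx2.

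Dlx5 (ENSMUSG00000029755) was close to the limit of detection. The table held 278 counts of it in all 30 libraries, and no library exceeded 0.914 CPM. Group medians lay between 0.175 and 0.242 CPM, and differences from 0.01 to 0.78 on the log2 scale had standard errors of 0.48 to 0.51. None of these differences was called. Aged lean libraries alone ran from 0.0578 to 0.914 CPM, and how much of the error is counting and how much is spread between mice was not tested.

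Spp1 (ENSMUSG00000029304, osteopontin) had the highest level of the members per length, and differed more between libraries than between groups. Medians were 164 CPM in young lean, 117 in young obese, 279 in aged lean and 128 CPM in aged obese libraries. Single libraries stood far above their groups, with 716 CPM in 1 young lean library, 652 CPM in young obese 22 and 942 CPM in aged lean 12. Obese mice had the lower median at both ages, with differences of -0.34 ± 0.46 in young and -0.91 ± 0.51 in aged mice. Neither passed the test (adjusted p = 0.664 and 0.473, edgeR), and the young value was 0.15 without that young lean library. Spp1 shares exon sequence with Gm42793 on the same strand.

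Ibsp (ENSMUSG00000029306, bone sialoprotein) was practically not detected. It had 10 counts over all libraries and 0 counts in 23 of 30. That is a level of 0.00913 CPM without scaling, with an exact Poisson 95% interval of 0.00438 to 0.0168 that covers counting error only. A count of 0 allows up to 3 counts, or 0.101 CPM in the shallowest library. It was not in the main fit, and in the fit without a filter it was called in none of the 5 comparisons (adjusted p at least 0.783, edgeR).

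Mgp (ENSMUSG00000030218) was called with Slc20a1, as higher in aged than in young obese mice, and it was lowest in young obese 18 to 21 and 23. Young lean libraries ran from 17.2 to 74.3 CPM with a median of 32.6 CPM. Young obese libraries gave 40.0 (1), 23.1 (2), 7.40 (18), 8.44 (19), 7.16 (20), 9.64 (21), 26.7 (22) and 11.2 CPM (23). The 5 close libraries 18 to 21 and 23 were below every young lean library, and mice 1, 2 and 22 lay within the young lean range. The difference of -1.18 ± 0.41 had an adjusted p of 0.0650 in edgeR and 0.0348 in DESeq2. Aged obese libraries ran from 11.9 to 122 CPM and all 6 were above the young obese median. This difference, 1.63 ± 0.44 or 3.09-fold, was called with an adjusted p of 0.0393 in edgeR. It was 1.17 ± 0.42 without aged obese 15 (adjusted p = 0.190), 1.53 ± 0.46 without aged obese 17 (0.0809) and 1.64 ± 0.46 without aged obese 14 (0.0548). It also missed the threshold without any 1 of young obese 18, 19, 20, 21 and 23 (adjusted p 0.0687 to 0.0738), and with the close libraries summed it was 1.21 ± 0.57 (adjusted p = 0.556). It further missed it with the offset for length and GC content (1.499 ± 0.44, adjusted p = 0.0535), without the filter (0.0540) and with only the groups compared (0.112). Aged lean and aged obese mice differed by 0.14 ± 0.43. Between the ages the obesity effect on Mgp differed by 1.31 ± 0.59, which was not called (adjusted p = 0.611, edgeR).

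**Figure D3:**
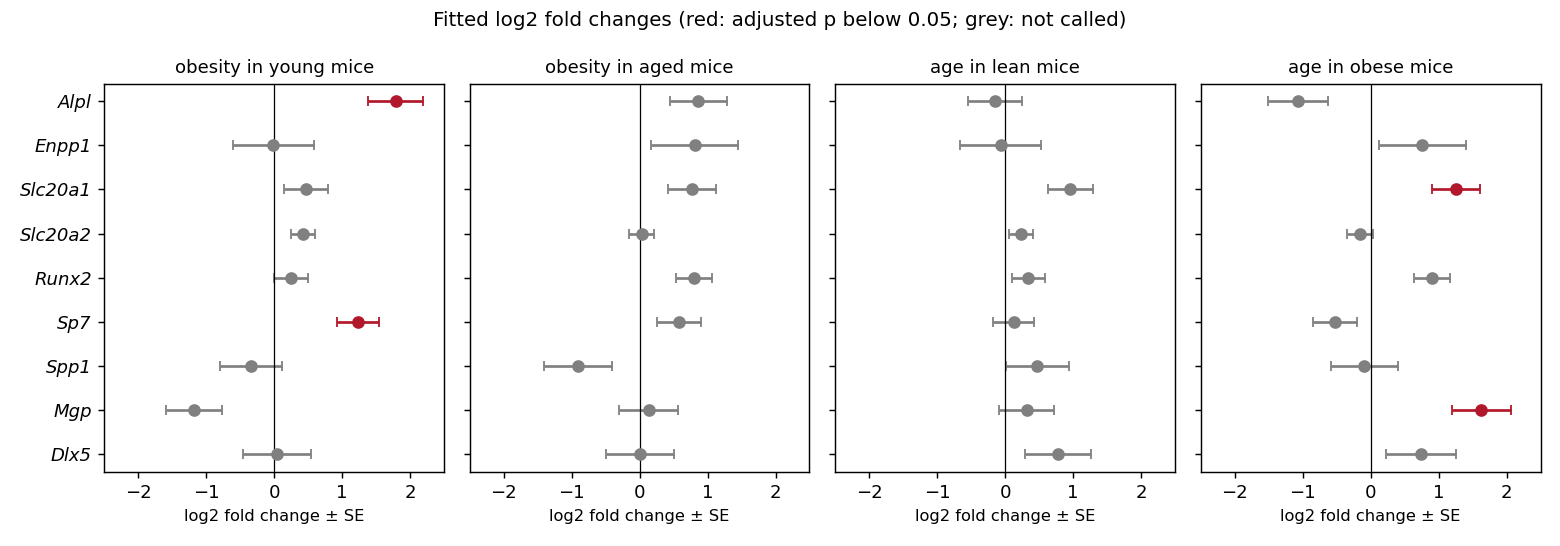
Fitted log2 fold change with its standard error for the 9 tested members in 4 comparisons, red where the adjusted p was under 0.05. Alpl and Sp7 are red for obesity in young mice, Slc20a1 and Mgp for age in obese mice, and no member is red in the other panels.

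Over the tested members, 2 of 9 rose and 0 fell in young obese against young lean mice, where 3.46% of all genes rose and 5.37% fell. In aged against young obese mice 2 of 9 rose and 0 fell, where 1.87% of all genes rose and 1.2% fell. None was called for obesity in aged mice, where 2 had an unadjusted p under 0.05 in edgeR, or for age in lean mice, where 1 did. Of all 14438 genes tested, 1838 and 773 had such a p in these comparisons. None was called for a difference between ages in the obesity effect, where 0.00693% of all genes were called. There 1 member had an unadjusted p under 0.05 in edgeR, beside 1155 of 14438 genes. DESeq2 and voom called no member in these 3 comparisons. The median log2 difference of the 9 members was 0.25 for obesity in young mice, against -0.02 over all genes tested. It was 0.58 against 0.01 for obesity in aged mice, 0.31 against -0.02 for age in lean mice and 0.74 against 0.01 for age in obese mice. In no comparison did the libraries of any member separate the groups without overlap. Among all genes, 1.61%, 0.187%, 0.00693% and 1.18% did so in these comparisons in turn. The members varied more than most genes within a group, with a median SD of log2 CPM of 0.54 in young lean, 0.77 in young obese, 0.85 in aged lean and 0.76 in aged obese libraries. Over all genes tested the medians were 0.29, 0.26, 0.30 and 0.38 in the same order.

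Compared per exon length over all 30 libraries, median RPKM values (CPM divided by exon length in kilobases) were 98.6 for Spp1, 26.4 for Mgp, 14.4 for Slc20a1, 9.34 for Alpl, 6.95 for Slc20a2, 3.67 for Runx2, 2.37 for Sp7, 1.38 for Enpp1, 0.0892 for Dlx5 and 0 for Ibsp. The ranges over libraries of neighbours in this order overlapped throughout, from Spp1 (52.9 to 572) and Mgp (6.03 to 102) down to Enpp1 (0.301 to 6.02) and Dlx5 (0.0121 to 0.404). In bulk RNA, fewer cells of a type and less RNA per cell cannot be told apart.

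Within groups, Alpl was set against the 8 other tested members. After the group means were taken off, log2 CPM of Alpl and Sp7 had Pearson's r = 0.638 and Spearman's rho = 0.653 over 30 libraries (permutation p within groups 0.00045 and 0.00028, two-sided, 0.0036 and 0.00224 after Benjamini-Hochberg adjustment over 8). Without the 2 libraries farthest from the median of Alpl, r was 0.638. The young obese libraries form sets, and without that group r was 0.498 and rho 0.543 over 22 libraries, with a permutation p for r of 0.0288, or 0.115 adjusted. The relation was thus not shown apart from the young obese libraries. The other 7 members gave r from -0.19 to 0.32 over 30 libraries, none past the threshold (adjusted permutation p at least 0.418). Without the young obese libraries Spp1 had the highest r of the 8 members, 0.557 with rho of 0.583 over 22 libraries, and a permutation p for r of 0.00958, or 0.0766 adjusted.

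**Figure D4:**
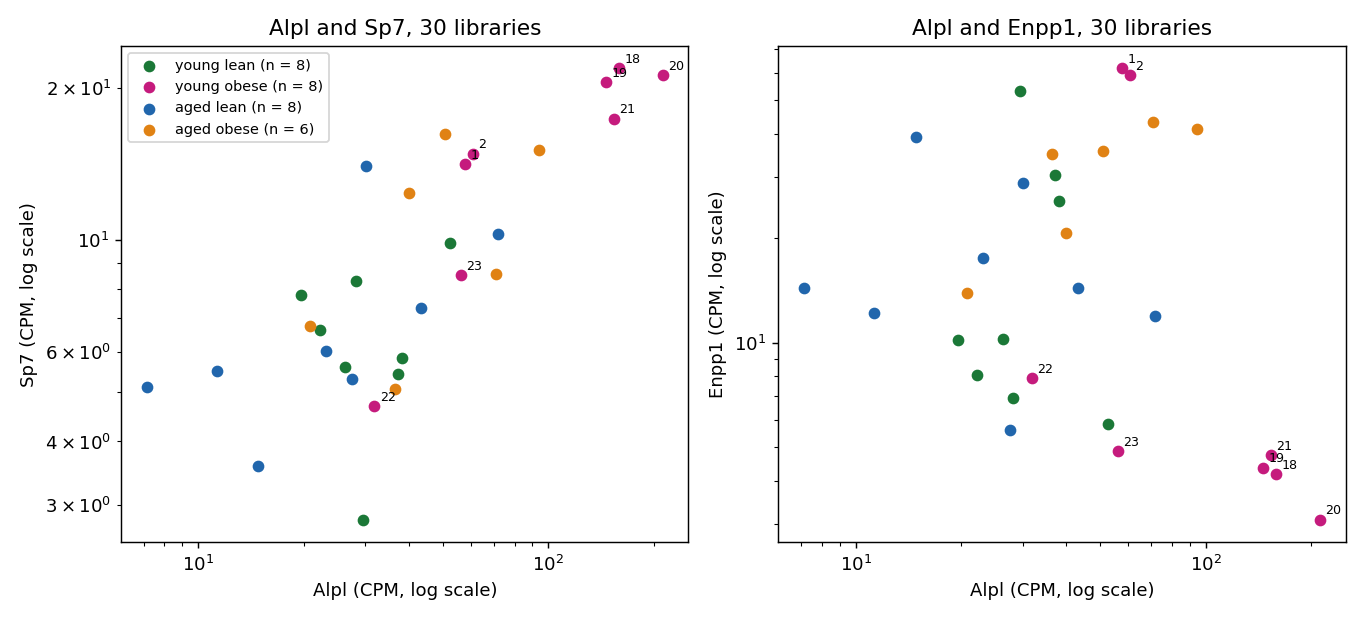
Levels of Alpl against Sp7 (left) and Enpp1 (right) in 30 libraries, in CPM on log axes, coloured by group, with mouse numbers beside the young obese points. Young obese 18 to 21 lie at the upper right in the Sp7 panel and at the lower right in the Enpp1 panel, and young obese 1 and 2 have the highest Enpp1.

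Of 10062 genes ranked by their likeness to Alpl within groups, the highest were Rpn2 (r = 0.722), a subunit of the complex that attaches sugars to new proteins in the endoplasmic reticulum, Plod3 (0.698), a lysyl hydroxylase of collagen, Unc5b (0.688), a netrin receptor, Slc6a17 (0.681), an amino acid transporter, and Slc35e4 (0.664). These values describe 30 libraries that share groups and close sets, and carry no test. For obesity in young mice none of the 5 was called, with log2 differences from -0.06 to 0.50.

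All 15 other listed genes of phosphate and pyrophosphate handling were found, and 13 were tested. In young obese mice 2 were lower and 0 higher, namely Ppa2, a mitochondrial pyrophosphatase (-0.36 ± 0.08, from 24.4 ± 3.03 to 18.99 ± 0.966 CPM), and Enpp2, the enzyme autotaxin (-2.21 ± 0.70, a gene of at most 3.98 CPM in these groups). With age in obese mice Ank, the pyrophosphate exporter, rose (1.04 ± 0.29, from 33.2 ± 12.7 to 68.3 ± 38.2 CPM, adjusted p = 0.0458, edgeR). None of the 13 passed for obesity in aged mice or age in lean mice. The list's median was -0.01 for obesity in young and 0.13 for age in obese mice, against -0.02 and 0.01 over all genes. For obesity in young mice 5.37% of all genes were lower and 3.46% higher.

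Calls among the osteogenic transcription factors other than the members came from the comparisons with aged obese mice, and whether these differ from the others was not tested. Of 17 tested, Msx1, a homeodomain factor, rose with obesity in aged mice (1.34 ± 0.29, adjusted p = 0.0440) and with age in obese mice (1.45 ± 0.29, adjusted p = 0.0103, edgeR). Its aged obese libraries ran from 3.74 to 22.4 CPM around a median of 5.21 CPM, against 2.38 to 4.25 CPM in aged lean libraries. Twist2, a repressor of osteoblast maturation, rose with age in obese mice (1.20 ± 0.28) but ranged from 14.7 to 101 CPM in aged obese libraries, against 15.5 to 24.8 CPM in young obese ones, so its lowest library lay below all of the latter. None was called for obesity in young mice, where the list's median was -0.07.

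Of 13 bone matrix genes tested, Omd (osteomodulin) was lower in young obese than in young lean mice (-1.81 ± 0.41, from 3.56 ± 3.28 to 1.01 ± 0.325 CPM). Tnn (tenascin-W) rose with obesity in aged mice by 4.799 ± 0.81 on the log2 scale (adjusted p = 0.00871, edgeR). Its aged obese libraries ran from 1.70 to 155 CPM with a median of 4.44 CPM, against 0.809 to 3.61 CPM in aged lean ones, so a few libraries carried most of the difference.

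Of 15 tested inhibitors of mineralization or of osteoblast maturation, 3 rose and 0 fell with age in obese mice. In that comparison 1.87% of all genes rose and 1.2% fell. Hey1, a Notch target that represses Runx2, rose by 6.09 ± 1.27 and ranged from 0.428 to 111 CPM in aged obese libraries, against 0.181 to 0.670 CPM in young obese ones. Ecm1, an extracellular matrix protein, rose by 0.80 ± 0.17 (from 532 ± 34.4 to 925 ± 265 CPM), and Chrdl1, a BMP antagonist, by 2.31 ± 0.64 at a median of 1.30 CPM. The list's median was 0.61 for age in obese mice and 0.53 for obesity in aged mice, where none was called, against 0.01 over all genes for both. Among 11 tested genes of bone resorption signals and of vitamin D or K steps, Vkorc1l1, a vitamin K epoxide reductase, and Csf1, the growth factor of macrophages and osteoclast precursors, rose with obesity in young mice (0.51 ± 0.11 and 0.46 ± 0.12), each with all 8 young obese libraries above the young lean median. For obesity in young mice 3.46% of all genes rose and 5.37% fell. The share of all genes with all 8 young obese libraries above that median was not computed. Mgp needs vitamin K for its own modification.

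Markers of other cell types moved beside these results, and their part in them was not tested. Summed adipocyte markers ran from 26.5 to 108 CPM in young lean and 24.5 to 69.8 CPM in young obese libraries. Most of this sum was Fabp4, with 25.5 to 85.4 and 24.2 to 69.2 CPM. For obesity in young mice Fabp4 differed by -0.35 ± 0.31, and Adipoq, Plin1 and Cfd, at low levels, by -2.82 to -2.46. None of the 4 tested was called, with a median of -2.58 for obesity in young and 1.84 for age in obese mice, and Lep had a median of 0 in every group. Of 7 mural markers tested, Cspg4 (2.04 ± 0.47) and Pdgfrb (0.56 ± 0.15) rose with age in obese mice, beside Slc20a1 and Mgp. In that comparison 1.87% of all genes rose and 1.2% fell. The summed level of the 8 was 4641 to 6006 CPM in young obese and 3581 to 7393 CPM in aged obese libraries. Most of this sum was Acta2, with 4083 to 5446 and 3046 to 6861 CPM, which differed by -0.10 ± 0.17. Summed chondrocyte markers, a cell type that also uses Alpl and Mgp, were 58.4 to 117 CPM in young obese and 55.4 to 474 CPM in aged obese libraries, with 0 of 4 called and Col9a1 at a median of 0. Endothelial markers summed to at most 20.1 CPM and blood cell markers to at most 36.9 CPM in any library, with Cldn5, Ptprc, Adgre1, Cd3e, S100a8 and Hbb-bs at a median of 0. Of 8 adipose progenitor markers Icam1 alone was called, higher with obesity in young (0.97 ± 0.23) and aged mice (1.35 ± 0.25). Cycling markers summed to 111 to 676 CPM in young obese and 196 to 439 CPM in young lean libraries, with 0 of 4 called.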

How the data were processed

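The deposited table holds counts of reads per Ensembl mouse gene, made by the authors, as raw whole numbers. The tools named in the submitters' processing notes are STAR, HTSeq 0.7.0 and DESeq2 1.12.4. Columns were matched to sample titles by group letters and mouse number. The aged obese headers begin with A and a zero, read here as the letter O since no other header fits that group, and 1 young lean header carries an unexplained suffix after its mouse number. Build, annotation release and strand setting are not given in the sources used here. The 5 lines that named no gene were left out, among them reads in no gene (3.94% to 8.75% per library) and ambiguous reads (2.69% to 3.41%). A symbol was found for 36639 of 38561 genes.

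The 10 members, the gene lists and the markers were chosen with earlier results of these data known. All 30 libraries entered 1 quasi-likelihood fit with 1 term per group (edgeR 4.0.16 in R 4.3.3), after TMM scaling and a filter on low counts by group (filterByExpr). P-values were adjusted by Benjamini and Hochberg over all tested genes, with calls below 0.05. Standard errors come from the F statistic. Levels per length used the exon lengths of GENCODE M21, whose symbols were matched by identifier. Likeness used log2 CPM with a prior count of 2, for genes of at least 4 CPM on average, and relations with Alpl used 100000 permutations within groups. Named genes are all members, up to 4 called genes of each list, and the 5 genes most like Alpl. The scripts were tested on simulated data. Alternatives were DESeq2 1.42.0, voom in limma 3.58.1, RLE factors, no filter, only the groups compared, an offset for length and GC content, a block on mouse number, and fits without 1 or 2 libraries. Mouse numbers name individual mice and do not pair them.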

Additional observations from a re-analysis of the deposited data

Results flagged for a closer look

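In groups of 6 to 8 libraries, a library was singled out where its gap to the nearest other library took up most of the range of the group (Dixon's test at its 95% level, on log2 CPM). Of 36 groups examined, 9 members in 4 groups each, 2 were singled out, and chance singles out about 1 in 20. Runx2 was 77.4 CPM in aged lean 16, against 38.2 CPM in the next library, and Slc20a2 was 78.1 CPM in young obese 22, against 51.8 CPM in the next. Aged lean 16 also had the highest Slc20a1 and Sp7 of its group, 330 and 14.03 CPM. Young obese 22 also had the highest Spp1 of its group, 652 CPM, and the lowest Alpl and Sp7, 31.8 and 4.70 CPM.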

How the results depend on the processing

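Of the 9 tested members, 2 were called for obesity in young mice, 6 with voom, and 0 with the block on mouse number or with the close young obese libraries summed (chosen after seeing the data). For obesity in aged mice the count was 0, and 2 without aged lean 16, with a range of 0 to 2 when 1 library was left out. For age in obese mice it was 2, and 4 with voom, 0 without the filter on low counts, 0 with only the groups compared and 0 with the close libraries summed, with a range of 0 to 3 when 1 library was left out. The block and the sums also leave fewer libraries, and the cause of these changes was not tested. The other alternatives left these counts within 1.5 times, and no alternative called a member for age in lean mice or for a difference between ages. Over all genes the calls ranged from 0 to 4266 (1275 as reported) for obesity in young mice, 0 to 435 (32) for obesity in aged mice, 0 to 8 (0) for age in lean mice, 0 to 2870 (443) for age in obese mice and 0 to 91 (1) for the last. The highest count for age in obese mice, 2870 of 14438 genes, was that of voom, so its higher count of members went with more calls over all genes.

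The replicate block used the 12 libraries whose mouse numbers occur in both diets of an age. In young mice these numbers were 1 and 23, so young obese 18, 19, 20 and 21, the highest for Alpl, were left out. With these 12 libraries and the block, Alpl in young mice was 0.37 ± 0.69 and Sp7 0.59 ± 0.66. The mouse numbers name individual mice. Deviations of same-numbered libraries had r from -0.52 to 0.39, and whether such libraries share more than a number was not tested. With the block, Enpp1 in young mice was 0.40, Slc20a2 in aged mice -0.16, and the difference between ages 0.38 for Alpl, 0.036 for Sp7 and 0.41 for Dlx5, all of the other sign.

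Other reversals concerned values that passed no test as reported. For obesity in young mice Enpp1 was 0.016 with DESeq2, 0.012 with RLE factors, 0.034 without the filter, 0.0042 with only the groups compared and 0.39 with summed libraries, Spp1 was 0.39 with summed libraries, and Dlx5 was -0.20 with voom, -0.082 without young obese 1 and 2 and -0.012 with summed libraries. For obesity in aged mice Slc20a2 was -0.025 with voom and -0.23 without aged obese 10 and 12, and Dlx5 -0.080 without aged lean 16. For age in lean mice Sp7 was -0.22 with voom and -0.084 without aged lean 16, and Enpp1 0.48 with voom. For age in obese mice Spp1 was 0.61 with voom and 0.17 without aged obese 10 and 12. For the difference between ages Spp1 was 0.090 with voom, and Dlx5 0.84 with voom, 0.090 without young obese 1 and 2, 0.30 without aged obese 10 and 12 and 0.028 with summed libraries.

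When 1 library was left out, obesity in young mice ranged from -0.94 to 0.15 for Spp1, -0.58 to 0.44 for Enpp1 and -0.12 to 0.16 for Dlx5. Obesity in aged mice ranged from -0.11 to 0.13 for Slc20a2, -0.32 to 0.35 for Mgp and -0.35 to 0.45 for Dlx5. Age in lean mice ranged from -0.48 to 0.0097 for Alpl, -0.084 to 0.24 for Sp7 and -0.33 to 0.39 for Enpp1, and age in obese mice from -0.47 to 0.52 for Spp1. The difference between ages ranged from -1.04 to 0.039 for Spp1, -0.084 to 0.69 for Slc20a1 and -0.39 to 0.40 for Dlx5. Depth limits Ibsp, with 10 counts in all, and Dlx5 had 278.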

Other observations

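Spp1 and Ibsp belong to a run of neighbouring genes of acidic matrix proteins. In the RefSeq order of GRCm38.p6 the protein-coding genes run Sparcl1, Dspp, Dmp1, Ibsp, Mepe, Spp1 and Pkd2. Over 30 libraries Dspp had 0 counts, Mepe 1, Dmp1 10 and Ibsp 10, while Spp1 at the end of the run had 267755. Per exon length the median of Spp1 was 98.6 RPKM, and that of each of the 4 was 0. Of the genes outside the run, Pkd2, next to Spp1, had a median of 17.9, and Sparcl1, next to Dspp, one of 0.316. The family was thus represented by Spp1 in these libraries, and no test was made on this.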
